A study of Mus musculus with 12 samples.

Results

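The genes described here encode the proteins of the cytosolic ribosome. They were chosen by name as protein-coding genes called Rpl or Rps plus a number, Rplp0 to Rplp2, or Rpsa, without the ribosomal S6 kinase genes. This name rule took in 87 of the 56748 genes in the count table, 35 named for the small 40S subunit and 52 for the large 60S subunit. Of the 87, 84 had enough reads to be tested among 16465 genes in all. Rpl10l and Rpl39l had no read in any of the 12 libraries, and Rps23rg1 had at most 10 reads in a library. Rps19bp1, Rpl7l1 and Rps23rg1 match the name rule but encode no subunit of the cytosolic ribosome.

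Ribosomal proteins assemble with ribosomal RNA in the nucleolus into the small subunit, which reads the mRNA, and the large subunit, which forms the peptide bond. Their mRNAs are among the most abundant in dividing cells. Most begin with a run of pyrimidines at the 5′ end, the terminal oligopyrimidine (TOP) motif, through which mTOR controls their translation. The genome also holds a large number of processed pseudogenes that were copied from these mRNAs, so a short read can match a ribosomal protein gene and its copies equally well.

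RNA was taken from wild-type CH310T1/2 cells, as the labels spell the mouse mesenchymal line C3H10T1/2, an immortalized line of fibroblast-like progenitors. Cells of every group were held in suspension for 1 h, in 0.5% FBS by the labels and without serum by the study's methods, which give 0.5% FBS for seeding. They were then cultured for 18 h on 12 kPa plates with a coat of type I collagen at 0.05 mg/ml. The collagen was polymerized alone (col1), with 30 nM recombinant aortic carboxypeptidase-like protein (col1-ACLP), or with 30 nM ACLP in cells that also received SB, an inhibitor of the TGFβ receptor kinase ALK5 (col1-ACLP+SB). Each group had 4 libraries, which the study calls biological replicates, and no group received SB on collagen without ACLP. The 12 poly(A)-selected libraries held 29246154 to 52201922 counts, and all 9 mesenchymal markers examined were present at a mean of 1 CPM (counts scaled for library size) or more. None of 4 adipocyte or 5 endothelial markers reached 1 CPM, and 1 of 5 epithelial and 1 of 5 haematopoietic markers did. The summed level was at most 0.269 CPM for the adipocyte markers and 0.579 CPM for the endothelial ones, 1.88 to 4.04 CPM for the epithelial ones with 1 marker at 0, and 5.46 to 10 CPM for the haematopoietic ones with 2 markers at 0. In bulk RNA of this kind, fewer cells and less RNA per cell cannot be told apart.

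The start of these genes is shown first, because the pyrimidine run defines the TOP class. RefSeq promoters (build GRCm38.p6) were available for 67 of the 87 genes. The lines give 15 bases before to 15 bases from the annotated start, 5′ to 3′ on the strand of the gene, with the longest run of C and T in capitals. Rpl7a and Rpl28 stand for long runs, Rps6 encodes the substrate of the S6 kinases, and Rps27, Rps27rt and Rps28 are the genes the comparisons turned on. The windows lie at chr2:26910792-26910821 (plus strand), chr7:4792950-4792979 (plus), chr4:86857353-86857382 (minus), chr3:90213634-90213663 (minus), chr9:114982725-114982754 (minus) and chr17:33824548-33824577 (minus), in that order.
Rpl7a: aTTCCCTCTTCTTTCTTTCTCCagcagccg
Rpl28: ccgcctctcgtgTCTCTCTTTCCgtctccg
Rps6: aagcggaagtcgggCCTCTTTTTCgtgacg
Rps27: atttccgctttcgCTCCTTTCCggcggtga
Rps27rt: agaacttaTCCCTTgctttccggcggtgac
Rps28: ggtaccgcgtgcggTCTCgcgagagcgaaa

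A pyrimidine run of 8 bases or more lay in this 30-base window in 28 of the 67 genes (41.8%), against 13.9% of 27025 genes of the genome, taking any annotated start of a gene. The median longest run was 7 bases in the ribosomal protein genes and 5 in all genes, and it ranged from 2 to 21 bases among the ribosomal protein genes. Rps28 was among the genes without a long run in this window, and the windows of Rps27 and Rps27rt shared a run of 14 bases, ctttccggcggtga. The letters CTTTC, read on the gene strand from 15 bases before to 20 bases from the start, were present in 28.4% of the ribosomal protein genes and 5.51% of all genes. On both strands of the 300-base promoter window, CCGGAAG, letters that ETS factors bind, was found in 38.8% against 9.93%, and GGGCGG, a GC box, in 61.2% against 38.2%. AAGATGG, part of the YY1 motif, was found in 14.9% against 7.28%, TATAAA in 10.4% against 15.7%, and CTTTC, which the first search overlaps, in 83.6% against 60.6%. These matches describe letters in a window and not bound sites.

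As a group the ribosomal protein genes were abundant, and most of them were measured at a high level in every library. The 84 tested genes ranged from 0.24 to 1303 CPM in the mean over 12 libraries, with a median of 243 CPM, and 66 of them were at 100 CPM or more. For levels between genes, FPKM (CPM divided by the gene length in kilobases) were used, and the median was 136 FPKM. The annotated gene length can far exceed the coding sequence, as for Rps15a (6270 against 393 bases). Ranks by FPKM depend in part on that length, and by CPM Rplp0 (1303) lay above Rplp1 (641). Rplp1, a protein of the acidic stalk that recruits elongation factors, was highest at 1284 FPKM. It was followed by Rplp0, the base of that stalk, at 786 FPKM, Rps15 of the 40S head at 764 FPKM, and Rpl41, the shortest ribosomal protein, at 607 FPKM. The lowest 4 were Rpl21 at 1.0 FPKM, Rpl24 at 0.807 FPKM, Rpl36al at 0.571 FPKM and Rpl3l, the striated-muscle form of Rpl3, at 0.146 FPKM. Rpl21 and Rpl24 are subunits of every ribosome, and their sequence copies held more counts than the genes themselves. The mean counts were 119 on Rpl21 and 236 on its copies, and 29.8 on Rpl24 and 290.1 on its copies.

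Ribosomal protein genes took up nearly equal shares of the transcriptome in the 3 groups. The share of all counts was 2.6%, 2.89%, 2.73% and 2.72% in the col1 libraries (2.73% ± 0.116, SD, n = 4). It was 2.69%, 2.76%, 2.55% and 2.2% in the col1-ACLP libraries (2.55% ± 0.251, n = 4). With SB the share was 2.88%, 2.38%, 2.41% and 2.8% (2.62% ± 0.26, n = 4). The groups overlapped, the differences between the means were no larger than the SD within the ACLP groups, and the lowest single library was col1-ACLP replicate 4.

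Much of the spread was between libraries of the same group, and it ran in the same direction over most ribosomal protein genes. Each gene's log2 CPM in a library was set against its own mean over the 12 libraries. The median deviation over the 84 genes was -0.034, 0.11, 0.034 and 0.042 in col1 replicates 1 to 4. It was 0.065, 0.092, -0.009 and -0.214 in the col1-ACLP libraries and 0.145, -0.149, -0.137 and 0.096 in the col1-ACLP+SB libraries. Replicate 4 of col1-ACLP was the lowest of its group in 70 of 84 genes. Among the SB libraries, replicate 1 was highest in 59 genes, and the lowest value lay in replicate 2 for 38 genes and in replicate 3 for 40 genes. In col1, replicate 2 was highest in 52 genes and replicate 1 lowest in 45.

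For genes at 50 CPM or more, the median SD within groups was 0.142 on the log2 scale for 72 ribosomal protein genes and 0.0799 for all 4459 genes at that level. In col1-ACLP replicate 4, other gene classes deviated in the same direction by less: -0.041 for 77 mitochondrial ribosomal protein genes, -0.096 for 22 translation factors with TOP mRNAs, -0.104 for 30 nuclear respiratory chain genes and -0.084 for 101 other protein-coding genes of 1500 bases or less. Protein-coding genes over 5000 bases (n = 2506) deviated by 0.033 in that library. The part that library handling has in these values was not tested.

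**Figure D1:**
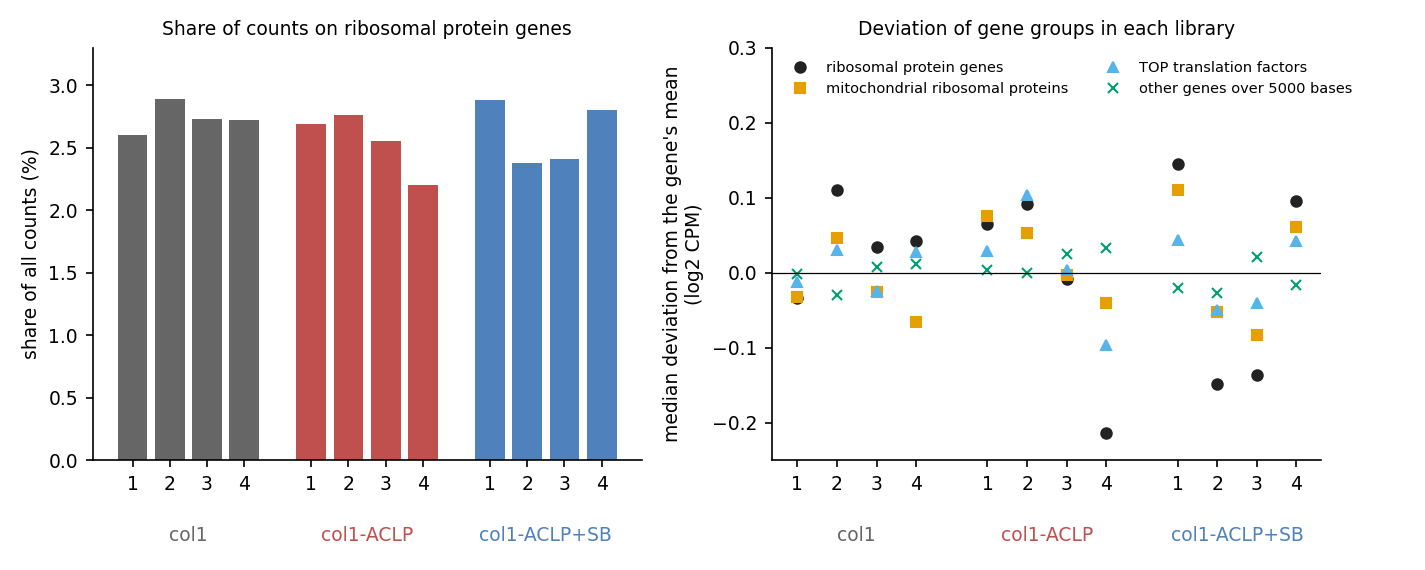
The left panel shows the share of all counts (%) on ribosomal protein genes in each of the 4 libraries of the 3 groups, as bars from 0. The right panel shows the median deviation of 4 gene groups from their own 12-library mean (log2 CPM), where the ribosomal protein genes (black circles) lie lowest in col1-ACLP replicate 4 at -0.214 and highest in col1-ACLP+SB replicate 1 at 0.145.

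The first comparison asked how collagen-bound ACLP changed ribosomal protein mRNA. Rps28, a protein of the 40S mRNA exit region, fell on col1-ACLP, and no ribosomal protein gene rose. With edgeR's quasi-likelihood test and a Benjamini-Hochberg adjusted p under 0.05, 1 of 84 genes (1.19%) was lower and 0 were higher, whereas 17.9% of all 16465 tested genes were called (8.41% lower and 9.52% higher). None passed the added fold threshold of 0.58 on the log2 scale, which 4.97% of all genes passed. At an unadjusted p under 0.05, 4 of the 84 genes stood out, against 28.3% of all genes, and in 1 gene the col1-ACLP libraries lay wholly below the col1 libraries, against 10.3% of all genes.

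Most estimates were small and below 0, although 3 that did not pass the test, Rpl3l (-1.67), Rps27a (-0.74) and Rpl24 (-0.62), lay beyond 0.58. The median log2 fold change was -0.05 over the 84 genes and -0.01 over all tested genes, and 65 of 84 estimates (77.4%) were below 0, against 51.5% of all genes. Among genes at 50 CPM or more, the medians were -0.051 for the ribosomal protein genes and 0.019 for all genes. The 34 tested 40S genes had a median of -0.07 and the 50 tested 60S genes -0.03. The 95% interval of the difference lay within 1.25-fold either way in 62 of 84 genes (73.8%), against 31.6% of all genes, and within 1.5-fold in 76 of 84, against 55.3%. The lean rested on 1 library, since without col1-ACLP replicate 4 the median was 0.01.

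SB-treated cells on ACLP differed from col1 cells in 2 ribosomal protein genes, Rps28 and Rps27, both lower. These were 2 of 84 genes (2.38%) with 0 higher, against 9.13% of all genes called, 4.54% lower and 4.60% higher, in the same test. No ribosomal protein gene passed the fold threshold, which 2.28% of all genes passed, and 6 ribosomal protein genes had an unadjusted p under 0.05, against 19.9% of all genes. In 1 gene, Rps28, the SB libraries lay wholly below the col1 libraries (6.32% of all genes), and in 0 they lay wholly above (6.70%). The median log2 fold change was -0.035, against 0.005 for all genes, and 61 of 84 estimates (72.6%) were below 0, against 49.1%. The median was 0.01 without col1-ACLP+SB replicate 2, 0 without replicate 3 and -0.08 without replicate 1. The 95% interval lay within 1.25-fold in 60 genes (71.4%, against 37.4%). This comparison and the one before it share the col1 libraries, so they are not independent.

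Between col1-ACLP+SB and col1-ACLP, the contrast that isolates the inhibitor on ACLP hydrogels, Rps27 was the one ribosomal protein gene called. It was lower (1 of 84 genes, 1.19%), with 0 genes higher, against 1.48% of all genes called, 0.905% lower and 0.571% higher. No ribosomal protein gene passed the fold threshold, against 0.128% of all genes. The groups had no overlapping libraries in 1 gene, against 8.17% of all genes, with Rps27 lower (4.52% of all genes) and 0 genes higher (3.65%). The median log2 fold change was 0.01 and 37 of 84 estimates (44.0%) were below 0, against 48.8% of all genes. Without col1-ACLP replicate 4 the median was -0.05. The 95% interval lay within 1.25-fold in 66 genes (78.6%, against 42.0%).

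**Figure D2:**
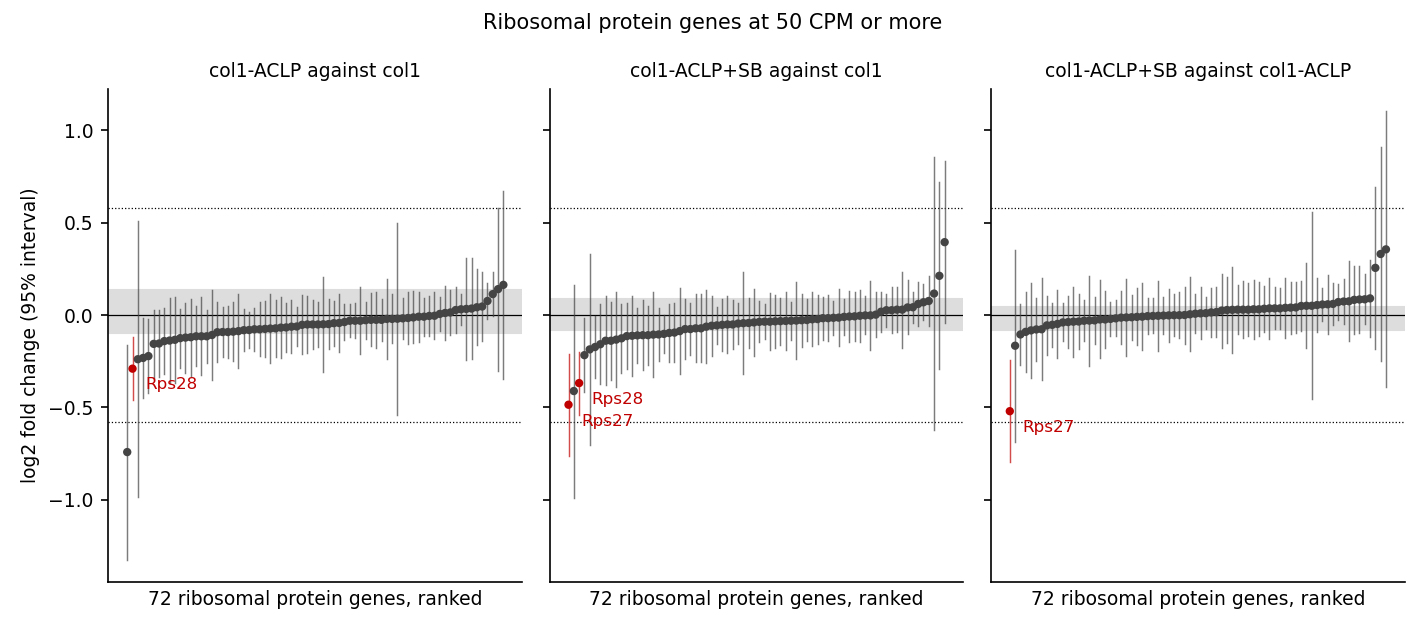
Log2 fold changes with 95% intervals are shown for the 72 ribosomal protein genes at 50 CPM or more, ranked within each of the 3 comparisons, with genes called at an adjusted p under 0.05 in red. The dotted lines mark the 0.58 threshold and the grey band runs from the lower to the upper quartile of all genes at that level; Rps28 and Rps27 are the called genes, and most intervals cross 0 close to the band.

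Rps28 was called in both comparisons against col1. The gene (ENSMUSG00000067288) lies at chr17:34038001-34043536 on the minus strand of GRCm39. On col1 hydrogels the libraries were at 192, 216, 223 and 212 CPM (211 ± 13.1, n = 4). On col1-ACLP they were at 191, 170.1, 171 and 157 CPM (172 ± 14.1), and with SB at 185, 128, 157 and 183 CPM (163 ± 26.8). All 8 libraries with ACLP lay below the lowest col1 library, by a margin of about 1 CPM for the nearest.

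On col1-ACLP, Rps28 fell by 0.29 on the log2 scale (SE 0.0826, edgeR adjusted p = 0.0139). With SB it fell by 0.37 against col1 (SE 0.0826, edgeR adjusted p = 0.00354), while the difference between the 2 ACLP groups was -0.08 (edgeR adjusted p = 0.793). The fall on col1-ACLP missed the threshold without col1 replicate 3 (-0.26, edgeR adjusted p = 0.0538) or without col1-ACLP replicate 4 (-0.25, edgeR adjusted p = 0.0574), and the fall with SB passed it whichever library was left out. The whole coding sequence of Rps28 occurs elsewhere in the genome, and 81.6% of the counts on the gene and its copies together were assigned to Rps28. With the copies added, the estimates were -0.28 and -0.36 (edgeR adjusted p = 0.0133 and 0.00277). The gene also overlaps Kank3 on the opposite strand, which held a mean count of 369 against 6492 for Rps28.

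Rps27, a zinc-finger protein of the 40S subunit, was lower in SB-treated cells, but did not pass the test once the counts of a gene with the same coding sequence were added. Rps27 (ENSMUSG00000090733, chr3:90119829-90120958, minus strand, GRCm39) has an intronless copy, Rps27rt (ENSMUSG00000050621, chr9:114811434-114811807, minus strand), that is also annotated as protein coding. Their coding sequences were the same over all 255 bases, while Rps27l, a paralog that p53 induces, differed at 61 bases (76.1% identity). The first 90 coding bases are shown because they make plain which genes a read can separate, with capitals in the Rps27l line at the 24 bases that differ from Rps27.
Rps27 and Rps27rt: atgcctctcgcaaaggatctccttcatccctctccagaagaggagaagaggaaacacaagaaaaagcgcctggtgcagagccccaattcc
Rps27l: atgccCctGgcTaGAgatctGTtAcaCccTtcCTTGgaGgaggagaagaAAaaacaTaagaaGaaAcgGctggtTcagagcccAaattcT

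The longest run shared by Rps27 and Rps27l was 11 bases, so a read over these bases separates the paralog but not the copy. Rps27 was counted at 96.3, 70.2, 114 and 56.6 CPM on col1 (84.4 ± 26, n = 4), at 90.9, 91.7, 79.9 and 82.7 CPM on col1-ACLP (86.3 ± 5.88), and at 58.4, 56, 71.1 and 54.9 CPM with SB (60.1 ± 7.46). The SB libraries lay below every col1-ACLP library but overlapped the col1 libraries. Rps27 was lower with SB by an estimate of -0.52 against col1-ACLP (SE 0.134, edgeR adjusted p = 0.0491) and -0.48 against col1 (SE 0.134, edgeR adjusted p = 0.0199).

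Rps27rt was counted at 33.1, 87.4, 48.4 and 95.6 CPM on col1, at 62.7, 69.2, 79.4 and 12.6 CPM on col1-ACLP, and at 101, 42.2, 41.4 and 103 CPM with SB. Within col1, replicates 1 and 3 had more Rps27 and less Rps27rt than replicates 2 and 4, and the sum was 129, 158, 162 and 152 CPM (150.4 ± 14.6). The sum was 154, 161, 159 and 95.3 CPM on col1-ACLP (142 ± 31.5) and 159, 98.2, 112 and 158 CPM with SB (132 ± 31.3).

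With the counts of Rps27rt added to Rps27, an alternative chosen after the values were seen, the estimates with SB were -0.19 against col1 (edgeR adjusted p = 0.493) and -0.11 against col1-ACLP (edgeR adjusted p = 0.83), and neither passed the threshold. For Rps27 alone, the call was lost at a similar estimate with DESeq2 (-0.49, adjusted p = 0.0973 against col1, and -0.52, adjusted p = 0.144 against col1-ACLP) and with limma-voom (-0.40, adjusted p = 0.0686, and -0.51, adjusted p = 0.0722). Against col1-ACLP it was also lost at a similar estimate when libraries were scaled by size alone (-0.49, edgeR adjusted p = 0.0656), by upper-quartile factors (-0.51, edgeR adjusted p = 0.06) or by loess offsets on abundance (-0.51, edgeR adjusted p = 0.0567). It was lost against col1 when col1 replicate 1 or 3 or SB replicate 1, 2 or 4 was left out (edgeR adjusted p = 0.0566 to 0.145). Against col1-ACLP it was lost without col1 replicate 1, any 1 of the 4 col1-ACLP libraries, or SB replicate 1, 2 or 4 (edgeR adjusted p = 0.0542 to 0.144).

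**Figure D3:**
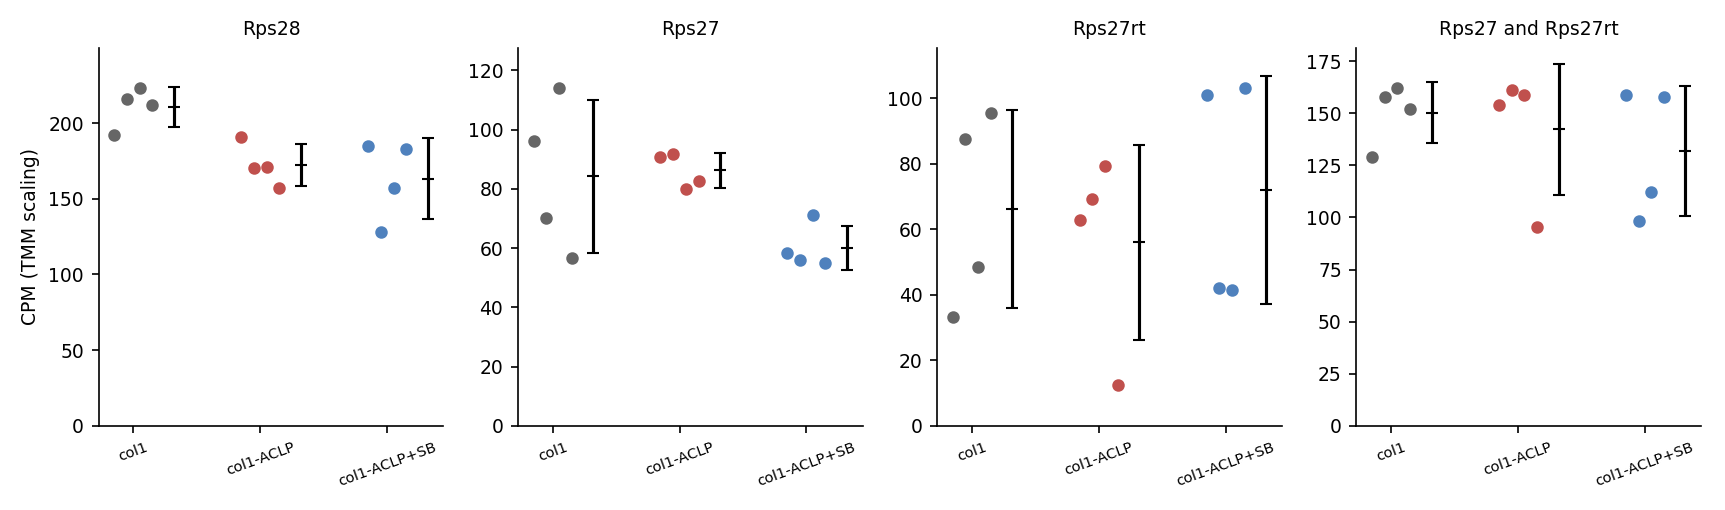
Each point is 1 library (CPM with TMM scaling, axes from 0), with the mean and SD of the 4 libraries of each group beside it, for Rps28, Rps27, Rps27rt and the sum of the last pair. All ACLP libraries lie below the col1 libraries for Rps28, and the SB libraries lie below the col1-ACLP libraries for Rps27 but not for the sum.

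Rps27a, which encodes ubiquitin fused to a 40S protein, had the lowest estimate on col1-ACLP among the genes at 50 CPM or more. It was at 90.6, 203, 263 and 193 CPM on col1 (187 ± 71.5), at 108, 96.2, 161 and 83 CPM with ACLP (112 ± 34.3) and at 275, 91.7, 92.2 and 104 CPM with ACLP and SB (141 ± 89.6). Replicate 1 was the low library on col1 and the high library with SB, and the groups overlapped. The log2 fold change on col1-ACLP was -0.74 (SE 0.281, edgeR adjusted p = 0.0717), with SB it was -0.41 (edgeR adjusted p = 0.466), and between the ACLP groups it was 0.33 (edgeR adjusted p = 0.722). On col1-ACLP it passed the threshold without col1 replicate 1 (-0.97, edgeR adjusted p = 0.011), without col1-ACLP replicate 3 (-0.97, edgeR adjusted p = 0.0301) or without SB replicate 1 (edgeR adjusted p = 0.00958), and without SB replicate 1 it also did so with SB against col1 (-0.96, edgeR adjusted p = 0.00517).

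Other 40S genes with small p did not pass the test. Rps21, which sits near Rps27 and Rps28 in the 40S platform and exit region, was at 182, 209, 214 and 191 CPM on col1, whereas the col1-ACLP libraries gave 188, 182, 184 and 129 CPM. Its log2 fold change was -0.22 on col1-ACLP (edgeR adjusted p = 0.126) and -0.22 with SB (edgeR adjusted p = 0.199). Rps12 gave -0.23 on col1-ACLP (edgeR adjusted p = 0.143), with its lowest library again col1-ACLP replicate 4. Rps19, a gene mutated in Diamond-Blackfan anaemia, gave -0.15 (edgeR adjusted p = 0.272). In SB-treated cells Rps2 gave 0.39 against col1 (edgeR adjusted p = 0.317), and Rps13 and Rps20 gave 0.08 and 0.07 against col1-ACLP (edgeR adjusted p = 0.681 and 0.694).

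Among genes named for the 60S subunit, Rpl7l1, a ribosome assembly factor of the nucleolus, gave 0.11 on col1-ACLP (edgeR adjusted p = 0.197). With SB against col1, the estimates were 0.42 for Rpl26, -0.17 for Rpl37a and -0.10 for Rpl28, with edgeR adjusted p of 0.209, 0.228 and 0.263. Rpl3l was at 0.653, 0.9, 0.0607 and 0.372 CPM on col1 and at 0.285, 0, 0 and 0 CPM with SB. Its fitted log2 fold change of -2.76 had an SE of 1.16 and did not pass (edgeR adjusted p = 0.167). Against col1-ACLP, SB-treated cells gave 0.99 for Rpl24 (SE 0.519, edgeR adjusted p = 0.442), 0.87 for Rpl36al (edgeR adjusted p = 0.591) and 0.06 for Rpl3 (edgeR adjusted p = 0.671), and the first pair of these were below 2 CPM in every library.

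The stalk proteins and the genes tied to signaling and stress sensing did not pass the test in any comparison. This list held 8 tested genes, so that 0 called is near the 17.9%, 9.13% and 1.48% of all genes called, with medians of -0.05, -0.04 and 0.02 in the 3 comparisons. Rplp0 was at 1237, 1401, 1306 and 1342 CPM on col1, at 1358, 1344, 1277 and 1204 CPM with ACLP and at 1369, 1186, 1259 and 1358 CPM with ACLP and SB. Its log2 fold change on col1-ACLP was -0.03 (edgeR adjusted p = 0.778), and the groups overlapped throughout.

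Rpsa, which is also known as the laminin receptor, was at 1028, 1064, 1005 and 978 CPM on col1, at 1073, 1091, 993 and 1007 CPM with ACLP and at 1084, 1031, 1018 and 1061 CPM with ACLP and SB. The estimates for Rpsa were 0.03 on col1-ACLP (edgeR adjusted p = 0.695) and 0.04 with SB against col1 (edgeR adjusted p = 0.658). Rps6, the substrate of the S6 kinases, gave -0.12 on col1-ACLP (edgeR adjusted p = 0.291). Rpl5 and Rpl11, which bind Mdm2 with 5S RNA when ribosome assembly fails, gave -0.05 and -0.13 (edgeR adjusted p = 0.734 and 0.31). Rplp1 and Rplp2, the partners of Rplp0 in the stalk, gave -0.03 and -0.05 (edgeR adjusted p = 0.825 and 0.706).

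Most paralogs were lower than their parents or absent in these cells. Rpl22l1 was at 12.8 FPKM beside 72.9 FPKM for its parent Rpl22, and Rps27l at 60.4 FPKM beside 73.7 FPKM for Rps27. Rps27rt stood at 173 FPKM over its shorter length and at 64.7 CPM beside 76.9 CPM for Rps27, but reads over the shared coding bases cannot be assigned to either gene. Rpl3l was at 0.146 FPKM beside 198 FPKM for Rpl3, and the testis paralogs Rpl10l and Rpl39l had no reads. None of the 7 tested genes of the paralog list was called in any comparison, a count near the 17.9%, 9.13% and 1.48% of all genes for so short a list. The list also held Rps19bp1, an Rps19-binding protein that is no paralog. Coding sequences of most pairs differed enough for reads to separate them, with longest shared runs of 26 bases between Rpl22 and Rpl22l1, 22 between Rpl3 and Rpl3l, 24 between Rpl36a and Rpl36al and 38 between Rpl39 and Rpl39l.

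Fau and Rack1 encode ribosomal proteins under other names and lie outside the name rule. Neither was called in any comparison. Fau, which encodes a 40S protein fused to a ubiquitin-like domain, gave -0.15 on col1-ACLP (edgeR adjusted p = 0.0749) and -0.13 with SB (edgeR adjusted p = 0.217). Rack1, a signaling scaffold on the 40S head, gave -0.03 on col1-ACLP (edgeR adjusted p = 0.805).

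For some ribosomal protein genes, most of the counts were on sequence copies. Of the 87 genes, 77 had at least one 100-base stretch of their coding sequence elsewhere in the genome, 23 had every such stretch copied and 10 had none. In all, 467 genes of the table held such a stretch. For Rpl26, Rps10 and Rpl24, the tested genes under 10%, the gene held 2.42%, 4.26% and 9.33% of the counts on the gene and its copies, and 10 of the 84 tested genes held under 50%. A mean of 278 counts was assigned to Rpl26, a 60S protein at the peptide exit, while 11115.1 were assigned to Gm15772, an annotated processed pseudogene. With copies added, Rpl26 stood at 323 CPM in place of 7.78 CPM, and Rps10 at 76.8 CPM in place of 3.27 CPM. The number of tested genes under 10 CPM fell from 6 to 3. Levels of these genes are therefore uncertain, and how reads that match several places were counted is not given in the sources used here.

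The spread within groups also differed once copies were counted. Rps2, a protein at the mRNA entry of the 40S subunit, was at 36.7 to 106 CPM among the col1-ACLP libraries, and its SD within groups was 0.493 on the log2 scale. With its copies, which held a mean of 14488 counts against 2614 on the gene, the SD was 0.0897. Adding the copies lowered the SD of Rpl17 from 0.559 to 0.304, of Rpl24 from 0.576 to 0.186 and of Rpl7a from 0.565 to 0.395. The SD was lower in 44 of the 74 tested genes with a copy gene, and the median SD of these 74 moved from 0.151 to 0.145. Of the 320 pseudogenes named after a ribosomal protein gene, 106 could be tested. On col1-ACLP, 2 of the 106 were lower, against 8.41% of all genes, and 0 were higher, against 9.52%. These were Rpl19-ps11 and Rpl17-ps9 (-0.92 and -1.17, edgeR adjusted p = 0.0218 and 0.042). None was called in the comparisons with SB, against 9.13% and 1.48% of all genes. Of the 14 tested genes with under 10% of their stretches copied, none was called in any comparison, against 17.9%, 9.13% and 1.48% of all genes. For so few genes this leaves little to read in these counts.

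**Figure D4:**
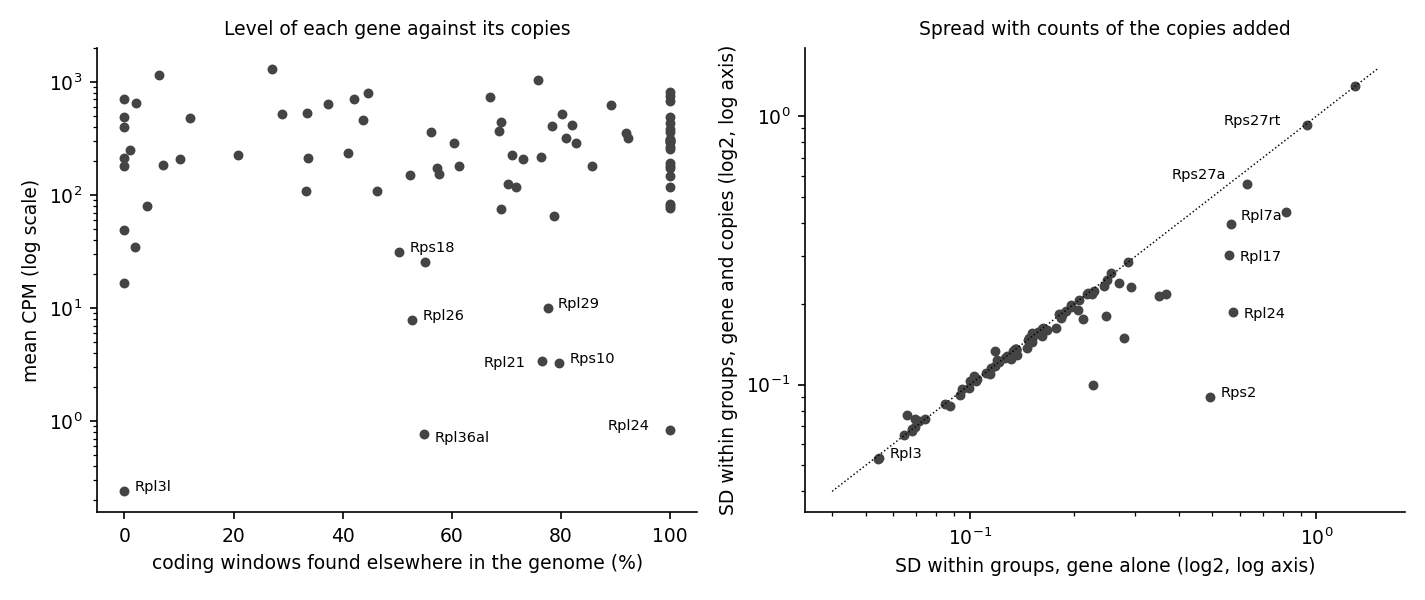
The left panel plots the mean level of each tested gene (CPM, log scale) against the percentage of its 100-base coding windows found elsewhere in the genome. The right panel plots the SD within groups (log2, log axes) with the counts of copies added against the gene alone, where points under the dotted line of equality, such as Rps2 (0.493 to 0.0897), are less spread with their copies.

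Neighbouring transcripts were checked in the same way. Ribosomal protein genes lay on 19 chromosomes, 30 of them held 58 small nucleolar RNA genes on their own strand, and 19 overlapped another protein-coding gene. In 7 of the 19, the neighbour's count was over 10% of the ribosomal protein gene's count, and each of these neighbours is on the opposite strand, as with Rps14 (mean count 18315) and Ndst1 (8397). The strand setting of the counting is not given in the sources used here, so reads of such pairs may not be separated.

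Lists of genes that build the ribosome or act beside it were read against all tested genes, of which 9.52% were higher and 8.41% lower on col1-ACLP, 4.60% and 4.54% with SB against col1, and 0.571% and 0.905% between the ACLP groups. Of 25 ribosome biogenesis genes, 9 were higher and 0 lower on col1-ACLP (median 0.186), with Bop1, Utp20 and Nop56, which process or modify pre-ribosomal RNA, up by 0.44, 0.35 and 0.34 (edgeR adjusted p = 4.45e-05, 5e-05 and 0.000487). Of 31 other initiation and elongation factors, 13 were higher and 1 lower (median 0.151), led by Eif3c, an eIF3 subunit (0.51, edgeR adjusted p = 2.35e-09). The corresponding counts with SB against col1 were 1 higher and 0 lower for biogenesis (median 0.074) and 7 higher and 1 lower for the factors (median 0.084). Between the ACLP groups they were 0 and 0, and 0 higher and 1 lower (Eif3c, -0.19, edgeR adjusted p = 0.0202). No difference between these lists and the ribosomal protein genes was tested.

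Translation factors that share the TOP motif with the ribosomal protein mRNAs went both ways on col1-ACLP, with 4 of 22 higher and 3 lower (median -0.007), where 17.9% of all genes were called in either direction. Among them Eif3e fell by 0.25 (edgeR adjusted p = 0.00123), Eif4b fell by 0.16 (edgeR adjusted p = 0.00292), and Eef1g rose by 0.21 (edgeR adjusted p = 0.00186). With SB against col1 the counts were 1 higher and 2 lower, and between the ACLP groups 0 and 0. Mitochondrial ribosomal proteins, which are built into a separate ribosome, gave 0 higher and 2 lower of 77 on col1-ACLP, against the same 17.9% (Mrps6 -0.27 and Mrpl4 -0.28, edgeR adjusted p = 0.00851 and 0.015). With SB against col1 they gave 1 higher (Mrpl54, 0.24, edgeR adjusted p = 0.0456) and 0 lower, and 0 and 0 between the ACLP groups.

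Of 16 genes of the mTOR and S6 kinase axis, 4 were higher and 2 lower on col1-ACLP, 1 and 1 with SB against col1, and 0 and 0 between the ACLP groups. Of all genes, 17.9%, 9.13% and 1.48% were called in these comparisons. Eif4ebp1, a translation repressor that mTOR phosphorylates, rose by 0.63 on col1-ACLP (edgeR adjusted p = 9.84e-08) and by 0.39 with SB (edgeR adjusted p = 0.000204). Rps6ka2, an S6 kinase family gene that the name rule left out, rose by 0.73 on col1-ACLP (edgeR adjusted p = 9.49e-05). Of 7 tested noncoding hosts of small nucleolar RNAs, whose transcripts are also of the TOP class, 1 was higher on col1-ACLP (Snhg5, 0.29, edgeR adjusted p = 0.0432) and none was called otherwise. Of 10 p53 targets, 2 were higher and 3 lower on col1-ACLP, 0 and 2 with SB against col1, and 0 and 0 between the ACLP groups, against the same shares of all genes.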

How the data were processed

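Poly(A)-enriched RNA of 12 libraries (4 per group) was sequenced, and the authors deposited raw read counts per gene in 1 table. Per the labels, the submitters' processing notes name HISAT2 and mm10, whereas the gene coordinates in the table are those of GRCm39, the build that the study's methods name. The counting tool, strand setting and treatment of multi-mapping reads are not given in the sources used here. All count columns matched a label (0 did not). Replicates were distinct libraries (chi-square per degree of freedom 7.32 to 19.7 between libraries of a group). P-values measure the spread between these 4 samples per group, pooled over the 3 groups. Each comparison therefore also draws on the spread of the group outside it.

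Counts were filtered with filterByExpr, scaled by TMM (factors 0.966 to 1.02) and fitted with edgeR 4.0.16 in R 4.3.3 (glmQLFit and glmQLFTest, 1 mean per group, all 12 libraries), with Benjamini-Hochberg adjustment over all 16465 genes and a threshold of 0.05. The common dispersion had a square root of 0.153. A second rule added a log2 fold change beyond 0.58. CPM used TMM scaling, and FPKM used the gene length in the table. Precision rests on the 4 libraries per group. Copies were genes annotated or named as pseudogenes that hold a 100-base stretch of a coding sequence, read on the reference genome. Named genes were those past the second rule, the 8 smallest p per comparison, the 4 highest and 4 lowest FPKM, and the fixed lists of stalk and sensor genes, paralogs, their parents and genes with other names, plus the 3 smallest p of each other list; pseudogenes and genes named for their copies or spread were chosen after their values were seen. The members and lists were chosen with earlier results of these data known.

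The fit was tested on simulated data with known changes, at a square-root dispersion of 0.15. Of 1.5-fold changes 42.3% were recovered (65% at 50 CPM or more), and of 2-fold changes 90.8% (100%). Changes of 1.5-fold were thus often missed. Of the 140 genes called, 10 were unchanged. Alternatives covered scaling, filtering, test (DESeq2 1.42.0, limma 3.58.1), copies and left-out libraries. Replicate numbers did not pair the libraries. Some genes that the rule names are not reported here.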

Additional observations from a re-analysis of the deposited data

Results flagged for a closer look

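In 8 of 120 groups of 4 libraries checked, 1 library stood far from the other 3 of its group for a named gene. Chance alone does this in about 1 in 20 independent groups with normal spread. The checks repeat the same 12 libraries over genes that moved together, so their count cannot be set against that rate. Replicate 4 of col1-ACLP was the low library for Rps15 (389 CPM, others 479 to 496), Rps12 (205 CPM, others 284 to 298), Rps21 (129 CPM, others 182 to 188) and Rpl36a (89 CPM, others 127 to 132). Replicate 2 of col1 was the high library for Rps15 (583 CPM, others 467 to 482) and Rps20 (449.8 CPM, others 408 to 409.7). Replicate 1 of col1-ACLP+SB was the high library for Rps27a (275 CPM, others 91.7 to 104) and for Rpl3l (0.285 CPM, others at 0).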

How the results depend on the processing

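Of 3386 refitted values of named genes, 160 had the other sign and none of those was called. The count of ribosomal protein genes lower on col1-ACLP (1) was 2 with loess offsets on abundance, with protein-coding genes only and with the 2 groups alone, 5 with no filter on low counts (29792 genes), and 0 with glmTreat or among genes with under 10% copied windows. Lower with SB against col1 (2) became 6 with no filter, 1 with DESeq2, limma-voom or Rps27rt added, and 0 with glmTreat or among little-copied genes. Lower with SB against col1-ACLP (1) became 0 with library size alone, upper-quartile factors, loess offsets on abundance, DESeq2, limma-voom, glmTreat, Rps27rt added or little-copied genes. Counts higher (0) became 1, 2 and 3 in the 3 comparisons with no filter, and 1 with SB against col1 in the 2 groups alone. On col1-ACLP, 1 gene passed the fold threshold with no filter, protein-coding genes only or the 2 groups alone. The cause was not tested.

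Leaving out each library in turn gave 0 to 2, 1 to 3 and 0 to 1 genes lower and 0 to 1, 0 to 2 and 0 to 1 past the fold threshold. Medians were -0.08 to 0.01, -0.08 to 0.01 and -0.05 to 0.05. The share of counts in col1 was 2.85% with ribosomal protein genes outside the name rule added, 2.98% with named pseudogenes and 3.16% with sequence copies, and 2.95% and 3.02% in the ACLP groups with sequence copies.

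Libraries with the same number did not deviate together (correlations -0.0372 to 0.036). With the replicate block the counts lower were 1, 2 and 1, as without it, and Rps28 on col1-ACLP was -0.29 (edgeR adjusted p = 0.0194). Sequence copies, little-copied genes, genes that are no subunit and Rps27rt added were alternatives chosen after the data were seen. Genes near 1 CPM, such as Rpl3l, are limited by depth.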
